A study of Mus musculus with 4 samples.

Results

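Many mouse genes carry a name taken from the tissue in which they were first found. Spata stands for spermatogenesis associated, Spag for sperm associated antigen and Tex for testis expressed. Binding of the transcription factor RFX2 to the promoters of these genes was described in wild-type mouse testis. The set comprised every protein-coding gene whose symbol begins with Spata, Spag or Tex followed by a number. Spag1, Spag6, Spag6l, Spag16, Spag17 and Spata16 were left out by the same rule. There were 73 such genes among the 21938 protein-coding genes annotated on chromosomes 1 to 19, X and Y of the mouse genome build GRCm38. Of these, 28 were Spata, 7 were Spag and 38 were Tex genes. The rule used gene symbols only, and no binding value, but the members were chosen with earlier results of these data known.

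RFX2 was mapped by ChIP-seq, in which chromatin fragments held by an antibody are sequenced and regions with an excess of reads over unselected input DNA are called as peaks. The labels describe 2 replicates of decapsulated testis from wild-type mice on a mixed C57BL/6, 129/Sv and FVB/N background at postnatal day 29 to 30, immunoprecipitated with an RFX2 antibody from Santa Cruz Biotechnology (sc-10657). The study's own text gives a younger age and dissociated germ cells, and this difference was not resolved here. How many animals each replicate came from is not stated. Each replicate also had an input library, which entered only through the peak calling. A testis of this age holds many cell types, and peak lists carry no expression markers by which to check the tissue.

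RFX2 is one of the regulatory factor X proteins, which recognise an inverted repeat called the X-box. These factors are best known for switching on genes for cilia and flagella, and RFX2 is needed for round spermatids to develop into sperm. The testis is rich in transcripts that few other tissues make. Genes named for it differ widely in function, from meiotic recombination to the sperm tail, and the name alone says little of their role.

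Replicate 1 listed 39825 peaks and replicate 2 listed 21274. Another list held 2726 peaks and is called the combined list. It is filed with replicate 2, but its peak names carry the prefix all and no replicate label, and it was therefore treated as a call on the reads of both replicates, which the labels do not state. Each peak of the combined list carries a -log10 p from the peak caller, down to 43.2, and each replicate peak a score that is a -log10 of p or q (which of them is not stated). Higher values mark stronger evidence. The combined list also gives a fold enrichment over local background and a summit, the base with the most reads. All lists hold called peaks alone, and the read depth behind them is unknown. A gene with no peak was therefore not listed, which is not the same as not bound. A promoter was taken as the stretch from 1000 bp upstream to 500 bp downstream of any annotated transcription start site (TSS) of the gene.

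RFX2 peaks were found at the promoters of a minority of the 73 genes, at a higher share than over protein-coding genes in general. In the combined list 13 of the 73 genes had a promoter peak, or 17.8%, with an exact (Clopper-Pearson) 95% interval of 9.84% to 28.5%. Over all protein-coding genes the share was 5.26%. In the replicate 1 list 17 genes had one (23.3%), beside 14% of all genes, and in the replicate 2 list 18 genes did (24.7%), beside 11.3%. Both replicate lists held a promoter peak for 16 of the 73 genes (21.9%), beside 9.05% of all genes. A total of 54 of the 73 genes had no promoter peak in any list (74.0%), beside 83.8% of all protein-coding genes. They were 4 of 10 sperm tail genes, 12 of 14 with general roles and 7 of 8 meiotic and germ cell surface genes. The rest were 13 of 14 in multicopy families and 18 of 26 with no assigned role. These intervals cover counting error only, genes are not replicates, and with 2 replicates and no second condition no test of the difference was made.

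The 13 genes of the combined list were Spata18, Tex21, Spag8, Spata4, Spata7, Spata2, Spata6, Spata17, Tex33, Spata24, Tex9, Tex26 and Spata45, in order of peak strength. All 13 also had an overlapping promoter peak in each replicate list. The combined list was treated as made from the same reads and may also have been limited to reproducible peaks, so this is not independent replication. Spata33, Tex47 and Spata46 had promoter peaks in both replicate lists but none in the combined list. Tex101 had one only in replicate 1, and Spag11a and Spata9 only in replicate 2.

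The name families differed in their shares. Of the Spata genes 8 of 28 (28.6%, exact 95% interval 13.2% to 48.7%) had a combined promoter peak, against 4 of 38 Tex genes (10.5%, interval 2.94% to 24.8%) and 1 of 7 Spag genes. The intervals of the Spata and Tex families overlap, and their difference was not tested. The 6 genes that the rule left out, several of which are known axoneme components, held a combined promoter peak in 4 cases.

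**Figure D1:**
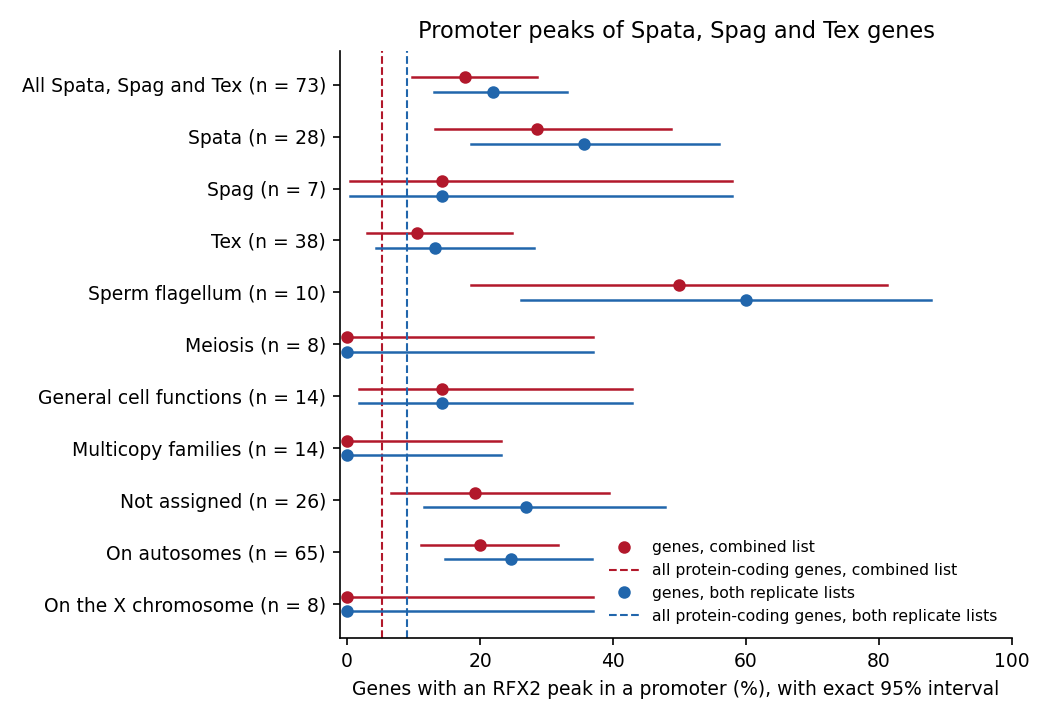
Percentage of genes with an RFX2 promoter peak, in the combined list (red) and in both replicate lists (blue), for all 73 genes and for subsets of them named on the left with their number. Points are shares, bars are exact 95% intervals and dashed lines are the shares over all protein-coding genes (5.26% and 9.05%). The 10 sperm flagellum genes have the highest share among the subsets plotted, and the genes of meiosis, of multicopy families and of the X chromosome lie at 0. The role groups were drawn up by hand with earlier results of these data known.

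Grouping the genes by what their products are known to do gave an uneven picture. The role lists were drawn up by hand from background knowledge, with earlier results of these data known. The shares by role are therefore descriptions, and no support for a link between role and binding. Of 10 genes for the sperm tail, its mitochondria or the head-to-tail junction, 5 had a combined promoter peak (exact 95% interval 18.7% to 81.3%), and 6 had one in both replicate lists. The only gene known mainly for a primary cilium, Spata7, had one as well. Among 14 genes with general cellular roles 2 did (14.3%, interval 1.78% to 42.8%). Among 26 genes to which no role was assigned there were 5 (interval 6.55% to 39.4%). None of 8 meiotic and germ cell surface genes (interval up to 36.9%) and none of 14 genes of multicopy families (interval up to 23.2%) had one in the combined list, and both of these intervals include the share over all genes.

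Among the sperm tail genes Spata18 had the strongest peak of the set. Spata18 encodes the mitochondria-eating protein, which takes part in the removal of damaged mitochondria. Its peak at chr5:73651350-73652646 was 26.5-fold enriched, and its -log10 p of 172.0 placed it 365th of the 2726 combined peaks. The overlapping peaks scored 102 in replicate 1 and 80.1 in replicate 2. The summit lay 468 bp downstream of the nearest TSS, in an intron, farther into the gene than any of the other 12.

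Spag8 encodes a protein of the sperm axoneme microtubules. Its peak at chr4:43653229-43654156 had a fold of 21.5 and a -log10 p of 130, with scores of 102 in replicate 1 and 40.7 in replicate 2. The peak scored as high as that of Spata18 in replicate 1 and lower in replicate 2. The summit lay 8 bp upstream of a TSS.

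Spata4, a gene with a single annotated TSS, had a peak at chr8:54600012-54601558 with a fold of 15.5 and a -log10 p of 117. Its scores were 96.7 and 39.4 in replicates 1 and 2, and its summit lay 5 bp upstream of the TSS. Spata6 is required for the connecting piece that joins the sperm head to the tail. Its peak at chr4:111719535-111720190 had a fold of 10.5 and a -log10 p of 104, and scored 85.7 and 31.7. The summit was 2 bp upstream of a TSS.

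Spata17 encodes a protein with calmodulin-binding IQ motifs. Its peak at chr1:187214680-187215611 had a fold of 17.4 and a -log10 p of 102, and scored 75.1 in replicate 1 and 24.3 in replicate 2. The summit lay 126 bp downstream of its nearest TSS, in an untranslated exon. The same peak met the promoter of Gpatch2, which is transcribed from the opposite strand and whose nearest TSS was 213 bp from the summit. It cannot be told from these data which of the pair the peak serves.

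Spata33 encodes a mitophagy factor that also holds calcineurin in the sperm midpiece. Its peak, 6 bp from a TSS by its centre in replicate 1, scored 20.2 there and 11.7 in replicate 2, and was not in the combined list. It overlapped the promoter of Chmp1a as well. The other 4 sperm tail genes, Spag4, Spata19, Spata48 and Tex43, had no promoter peak in any list.

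Spata7 encodes a protein of the connecting cilium of photoreceptors and is mutated in an inherited blindness. Its peak at chr12:98627904-98628768 had a fold of 12.2 and a -log10 p of 115. The scores were 69.4 in replicate 1 and 64.7 in replicate 2, so that it ranked 1201st in the first list and 344th in the second. The summit lay 2 bp downstream of a TSS.

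The 2 genes of general function with a peak were Spata2 and Tex9. Spata2 couples the deubiquitinase CYLD to the linear ubiquitin ligase in inflammatory signalling. Its peak at chr2:167492820-167493634 had a fold of 13.0 and a -log10 p of 106, with scores of 55.1 and 59.6 in replicates 1 and 2. It was the only one of the 13 to score higher in replicate 2. Of the 1138 genes of the combined list found in both replicates, 1089 scored higher in replicate 1. The summit lay 260 bp upstream of Spata2 and 502 bp from the TSS of Rnf114, which runs in the opposite direction and whose promoter the peak also met.

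Tex9 had a peak at chr9:72491591-72492715 with the lowest fold of the 13, 8.96, and a -log10 p of 80.8. Its scores were 64.6 and 35.0. The summit lay 4 bp upstream of an internal TSS and 247 bp inside the gene as counted from its outermost TSS. The other 12 genes with general roles had no promoter peak, among them Spag5, which encodes the spindle protein astrin, Spag9, which encodes a scaffold for JNK signalling, and Tex264, which encodes a receptor for autophagy of the endoplasmic reticulum.

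Of the 5 genes with no assigned role Tex21 had the strongest peak. It lay at chr12:76246110-76247422 with the highest fold of the 13, 34.7, and a -log10 p of 149. It scored 125 in replicate 1, the highest value of the set in that list, and 30.2 in replicate 2, below 8 of the other 12 genes. The summit was 8 bp upstream of the TSS.

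Tex33 had a peak at chr15:78395512-78396464 with a fold of 18.8 and a -log10 p of 91.2, scoring 70.7 and 21.7. Tex26 had a peak at chr5:149439257-149440082 with a fold of 14.4 and a -log10 p of 79.1, scoring 56.9 and 20.7. Spata45 had the lowest -log10 p, 64.5, at chr1:191036579-191037384, with a fold of 18.6 and scores of 44.0 and 21.7. All 3 summits lay upstream of a TSS, by 47, 28 and 32 bp, and that of Spata45 was within an intron of a transcript that starts further upstream.

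**Figure D2:**
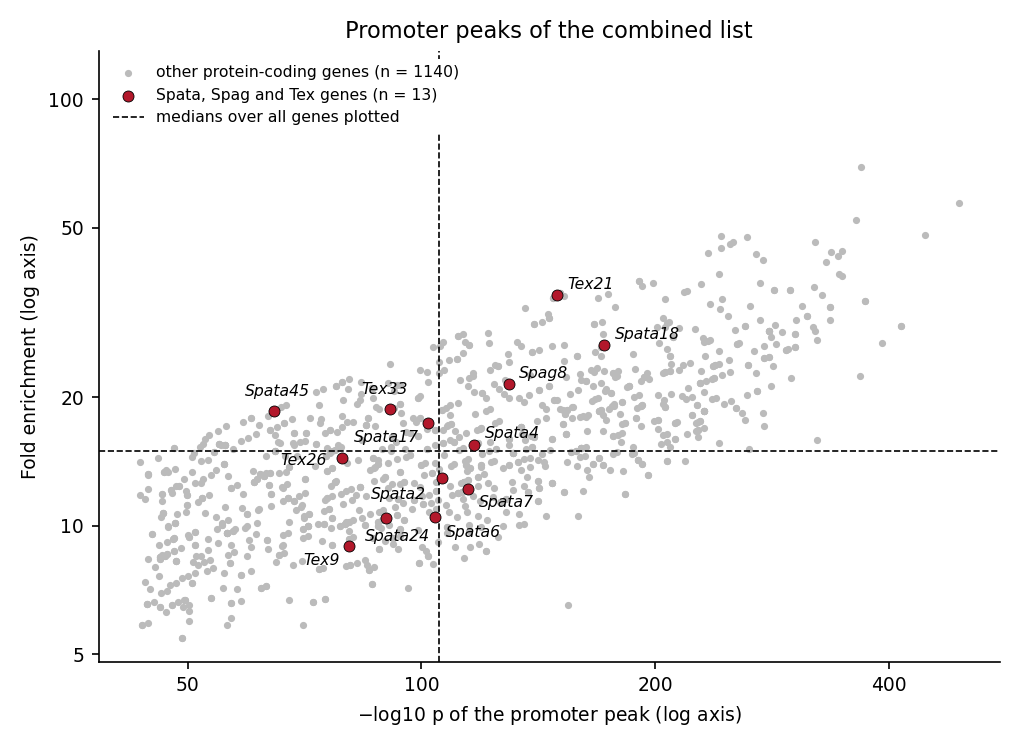
Fold enrichment against -log10 p (both on log axes) of the strongest combined-list promoter peak of each of 1153 protein-coding genes, with the 13 Spata, Spag and Tex genes in red and named. Dashed lines are the medians over all genes plotted. The 13 genes lie on both sides of each median. By fold they range from Tex21, 3.38% from the top of the genes plotted, to Tex9 at 88.9%.

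The peaks of the 13 genes were of ordinary strength for RFX2 promoter peaks. Their median -log10 p was 104 (range 64.5 to 172.0), beside 106 over the 1153 genes with a combined promoter peak, and their median fold was 15.5 (range 8.96 to 34.7), beside 14.96. In the strongest 25% of the combined list lay 3 of the 13 genes, Spata18, Tex21 and Spag8, compared with 38.5% of all genes with a combined promoter peak.

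The 13 genes of the combined list stood at a median 2.91% from the top of the replicate 1 list and 4.63% in replicate 2. Over all genes of the combined list the medians were 2.53% and 3.56%. A high standing was given in advance, since the combined list was treated as made from the same reads. The replicates disagreed on the order among the genes of the set. Over the 16 genes with a promoter peak in both replicate lists, replicate 1 scored higher in 15 cases. It also did so in 1742 of the 1985 protein-coding genes found in both lists. The ratio of the replicate 1 to the replicate 2 score ran from 0.924 in Spata2 to 4.13 in Tex21, with a median of 2.18, beside a median of 1.93 over the 1985 genes found in both lists. Spata18, Spata7 and Spata2 had the 3 highest scores of the set in replicate 2, and Tex21, Spag8 and Spata18 those in replicate 1. As a description across genes, Spearman's rho between the replicate scores was 0.60 over the 16 genes and 0.88 over all 1985. Over the 13 genes of the combined list alone it was 0.25, beside 0.79 over the 1138 genes of that list found in both replicates. The values of 1 replicate share a library, and the scores of the 16 genes span a narrower range than those of all genes.

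**Figure D3:**
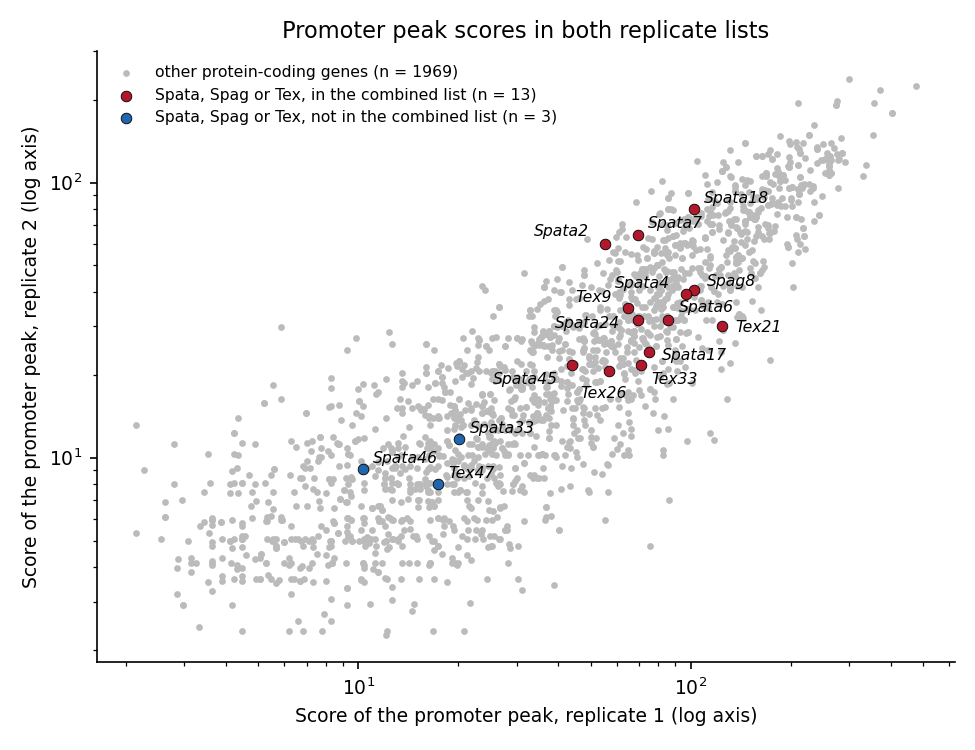
Score of the strongest promoter peak in replicate 1 (x) and replicate 2 (y), both on log axes, for every protein-coding gene with a promoter peak in both lists. Red points are the 13 genes of the combined list, blue points the 3 genes outside it and grey points the other 1969 genes. Spata2, Spata7 and Spata18 lie toward the replicate 2 side of the red points and Tex21 toward the replicate 1 side.

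The summits lay close to start sites. The median distance from summit to nearest TSS was 28 bp in the 13 genes, beside 70 bp over all genes with a combined promoter peak. In 10 of 13 genes the summit was within 50 bp of a TSS, against 40.3% of all such genes, and 10 of 13 summits were upstream, against 74.0%. The 3 summits beyond 50 bp were those of Spata2, Spata17 and Spata18. By annotation, 6 of the 13 summits lay outside the gene, 5 in an untranslated exon and 2 in an intron. Counted from the outermost TSS alone the median distance was 34 bp, beside 139 bp for all such genes. Measured from the peak centre in place of the summit it was 122 bp, beside 145 bp, and the gap to all genes was smaller.

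**Figure D4:**
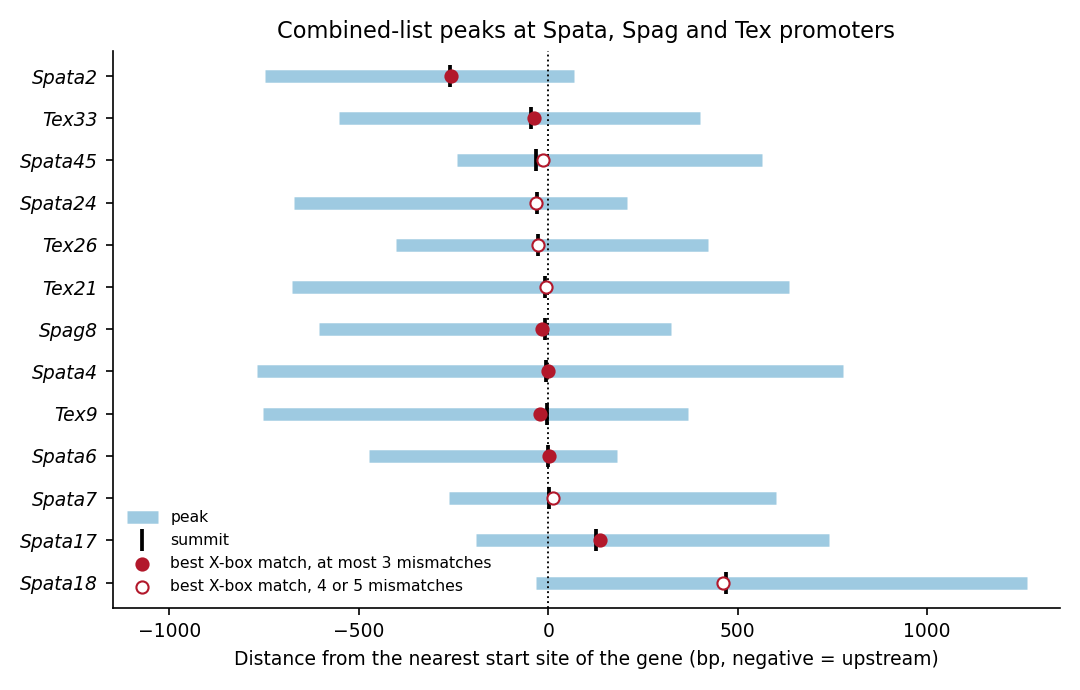
Extent of the combined-list peak (blue bar), its summit (black tick) and the best match to the X-box within 100 bp of the summit (circle) for each of the 13 genes, in bp from the nearest TSS of the gene, with upstream to the left. Filled circles are matches with at most 3 mismatches and open circles weaker ones. Spata2 alone lies over 200 bp upstream and Spata18 alone over 400 bp downstream.

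The X-box was read from the data as the perfect 14-base inverted repeat found most often within 100 bp of combined-list summits. It was GTTGCCATGGCAAC, which is its own reverse complement and occurred in 163 of the 2726 peaks. A match was called where 200 bp around the summit held these 14 letters on either strand with at most 3 mismatches. Such a match was found for 7 of the 13 genes (53.8%, exact 95% interval 25.1% to 80.8%), beside 58.9% of all 1003 combined peaks that meet a promoter. In a window of the same length 1000 bp to the right of the summit none of the 13 peaks and 0.781% of genes with a combined promoter peak had one. The share in these genes was thus near that of RFX2 promoter peaks in general.

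The matches of these 7 genes are shown because they carry most of the named peaks and differ in where they depart from the palindrome. Each line gives the forward strand of GRCm38, with the 14 bases of the best match in capitals and 8 bases on either side. Substitutions are numbered along the palindrome, its first base being 1, with the base of the palindrome before the number and that of the site after it.
Tex33, chr15:78395935-78395964: gcattgaaGTTGCCATGGCGACactatgcc
Spata17, chr1:187215270-187215299: tactattaGTCTCCATGGCAACtgggctga
Spata6, chr4:111719996-111720025: ccctccagGCTGCCATGACAACgagtccgc
Spata4, chr8:54600767-54600796: gctgatctGTTGCCATAGAAACccataaag
Spata2, chr2:167493129-167493158: ctggccggGTTGTCATGGAAACaggttgct
Spag8, chr4:43653554-43653583: cctcccggGTTGCCATAGAGACggcaaaca
Tex9, chr9:72491969-72491998: gcgatgcgGTTGCCGTGGTGACcgtacatc

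Tex33 came closest, with A12G as its single mismatch. In Tex33, Spata4 and Spag8 the left arm of the palindrome (its first 7 bases) was intact and every mismatch lay in the right arm, while in Spata17 the reverse held, with T3C and G4T in the left arm. Spata4 carried G9A and C11A, and Spag8 the same pair with A12G. Spata6 had T2C and G10A, Spata2 had C5T and C11A, and Tex9 had A7G, C11T and A12G. Each of these 7 sites lay within 18 bp of its summit. The number of mismatches did not order the peaks by strength, since Tex33 with 1 mismatch had the 9th strongest peak of the 13 and Spag8 with 3 mismatches the 3rd.

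The other 6 genes, Spata18, Tex21, Spata7, Spata24, Tex26 and Spata45, had a best match with 4 or 5 mismatches at the summit, although Spata18 and Tex21 had the strongest peaks of the set. A half-site was therefore searched, a choice made after these values were seen. It was taken as the last 5 letters of the palindrome, GCAAC, on either strand, within the 50 bp centred on the summit. The full palindrome contains it on both strands. It was present in 10 of 13 genes (76.9%), beside 64.7% of all 1153 genes with a combined promoter peak and 5.20% in a like window 1000 bp away. Of the 6 genes without an X-box match 4 held the half-site, compared with 60.3% of the 481 such genes overall. The half-sites of 3 of these genes, which include the strongest peaks of the set, are shown on the forward strand of GRCm38 with each half-site in capitals.
Spata18, chr5:73651834-73651863: cccgcggccctaGCAACagaagggtagctt
Tex21, chr12:76246749-76246778: ttccatgtcacaGCAACcGTTGCtaggtga
Spata7, chr12:98628159-98628188: agctcgcccttaGCAACcgccctggcgact

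In Tex21 2 half-sites stood head to head, 1 base apart, in the order opposite to that of the palindrome. The second of them also opened another X-box match with 4 mismatches, as many as the match at the summit, centred 19 bp from the summit. In Spata18 the half-site lay 2 bp from the summit and in Spata7 4 bp from it. Tex26 and Spata45 had no GCAAC within the 50 bp, and Spata6, whose X-box match is altered in both arms, had none either. A match is a description of letters and not a mapped contact of the protein.

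Spata24 had a combined peak with a fold of 10.4 and a -log10 p of 89.9, which scored 69.5 in replicate 1 and 31.7 in replicate 2. Its summit lay 29 bp upstream of a TSS. The peak also met the promoter of a second annotated gene, written SPATA24 in capitals, on the same strand. That entry does not match the rule by its spelling and was counted among the other genes.

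Beyond the combined list the evidence was weaker. Spata46, whose product sits at the nuclear envelope beneath the acrosome, scored 10.3 in replicate 1 and 9.08 in replicate 2, with peak centres 86 and 54 bp downstream of its single TSS. Tex47 scored 17.4 in replicate 1 and 7.998 in replicate 2, in peaks centred 952 and 885 bp upstream of a TSS, at the far edge of its promoter. Replicate 1 listed a second peak 47 bp upstream of its TSS, with a score of 10.4. The scores of these genes and of Spata33 (20.2 and 11.7) stood beside medians of 14.3 and 8.10 over the 847 genes found in both replicate lists and not in the combined list. The peaks seen in 1 replicate alone were weaker again. Tex101, a germ cell surface protein gene, scored 2.26 in replicate 1 and ranked 39770th of 39825 peaks, and Spag11a and Spata9 scored 4.14 and 5.06 in replicate 2.

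Of the 8 meiotic and germ cell surface genes 1 had a promoter peak in any list (12.5%), beside 16.2% of all protein-coding genes, and at this number a difference was not detectable. Tex11, which acts in crossover formation, Tex12 of the synaptonemal complex, Tex14 of the intercellular bridges, Tex15, Spata22, Tex19.1 and Tex19.2 had none in any list. Only the weak replicate 1 peak of Tex101 came from this group. The median share of 50-base words in their promoters that occur once in the genome was 98.8%, and the lowest was 94.0%.

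The multicopy group, which holds Spata31 and its relatives, the Spag11 genes, the Tex13 genes, Tex16 and Tex28, had a promoter peak in 1 of 14 genes, Spag11a in replicate 2 (7.14%, exact 95% interval 0.181% to 33.9%), beside 11.3% of all genes in that list. Reads with several genomic locations were discarded by the authors, and the part of this in the count was not tested. Of the 14 promoters 13 consisted of at least 80% unique 50-base words, while 9.30% of all protein-coding promoters fell below 80%. The lowest share among the 14 was 68.2%. Of the 14, 7 lie on the X chromosome. No gene of the set on X had a promoter peak in any list (0 of 8, exact 95% interval up to 36.9%), beside 8.12% of all 948 protein-coding genes on X. In the combined list alone the share over these 948 genes was 1.37%. Off the X chromosome 13 of 65 genes of the set had a combined promoter peak, beside 5.43% of all protein-coding genes there.

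The annotation of start sites bears on these shares, since a gene with more of them offers more promoter sequence. The 73 genes had a median promoter length of 1922 bp, beside 3002 bp over all genes. Of the 22 genes with 1 TSS only Spata4 had a combined peak (4.55%), beside 2.48% of all genes with 1 TSS. Of the 51 genes with 2 or more TSSs 12 did (23.5%), beside 6.05%.

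Of the 60 genes without a combined promoter peak 2 had a combined peak inside the gene (3.33%), near the 3.17% of all protein-coding genes without one. Tex45 had one inside the gene at chr8:3478708-3479818, overlapping an exon 3268 bp from the nearest TSS, with a -log10 p of 102, a fold of 18.3, scores of 61.2 and 43.4 in the replicates and a single X-box mismatch at the summit. Tex11 had an intronic peak on the X chromosome, 151960 bp from its TSS, with a -log10 p of 53.3 and scores of 45.5 and 6.03. A strong peak, 23.5-fold enriched with a -log10 p of 258 and 95th of the combined list, lay between genes at chr1:86434405-86434883. Tex44 was the nearest protein-coding gene, with its TSS 8.24 kb away.

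In total 11 of the 60 genes without a combined promoter peak had a combined summit within 50 kb of a TSS (18.3%), beside 17.5% of all protein-coding genes without one. In 5 of these 11 cases the summit lay at the promoter of another gene, Ppm1e near Tex14, Ankrd45 near Tex50, Zswim1 near Spata25, Mipep near Spata13 and Map3k14 near Spata32. The same count was not made over all protein-coding genes, so it cannot be read as a trait of this set.

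The promoter sequences were compared without regard to peaks, over 1500 bp around the outermost TSS. An X-box with at most 2 mismatches was present in 6 of the 73 promoters (8.22%), those of Tex33, Spata2, Spata4, Spata6, Spata17 and Spata33, beside 2.27% of all promoters. Each of these 6 genes had a peak in both replicates, and 5 had a combined peak. Of all 497 protein-coding promoters with such a match, 89 had no peak in any list and 283 had a combined peak. None of the 54 genes without a peak had such a match, beside 0.484% of all genes without a peak. The exact interval for these 54 genes reaches 6.60% and includes that share, so the 0 shows no difference from all genes. With at most 3 mismatches there were 12 promoters (16.4%), beside 8.96%, and the 2 without any peak were those of Spata25 and Tex36. The cAMP response element TGACGTCA, the site of the spermatid factor CREM, was searched as its 8 letters, which are the same on both strands and do not overlap the X-box. It occurred in 4 of the 73 promoters (5.48%), those of Spata7, Spag4, Tex14 and Tex37, beside 3.65% of all promoters, and only that of Spata7 had an RFX2 peak.

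The promoters with a peak were richer in CpG. The ratio of observed to expected CpG in the 500 bp around the outermost TSS had a median of 0.625 in the 13 genes with a combined peak and of 0.341 in the other 60. Over all protein-coding genes the medians were 0.751 with and 0.565 without a combined peak. The G+C content differed less, with medians of 54.0% and 52.4% in the set.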

How the data were processed

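The members and the role lists were chosen with earlier results of these data known. The authors aligned reads with Bowtie 0.12.7 to GRCm38 after base calling with CASAVA 1.8.2, discarded reads with several locations, removed reads mapping to the human genome from the second run of replicate 2, and called peaks against input with MACS2 2.0.10.20130520. The deposited replicate lists give 1 score per peak on a -log10 scale of p or q. Which of these, and which call setting was deposited, is not given in the sources used here. The deposited combined list, filed with replicate 2 and treated as a call on pooled reads from its peak names, gives -log10 p, -log10 q, fold enrichment, a whole-number score (10 times the -log10 p) and the summit position. The study's text also describes keeping only those peaks that were reproducible between the 2 replicates. The number of such peaks given in that text is close to the number in the deposited combined list. How the deposited combined list relates to that step was not resolved here. A gene in both replicate lists but not in the combined list may have failed such a cut, which was not tested. Read depth is unknown.

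Promoters were built from GENCODE mouse release 21 and overlapped with peaks by at least 1 bp in Python 3.11.15 (pandas 2.3.3, scipy 1.17.1), and the counts were repeated with bedtools 2.31.1. In a check on simulated data 200 of 200 planted promoter peaks were found and 0 of 840 decoys were called. Sequence was read from GRCm38.p6 (RefSeq). Where a gene had several peaks in a list the highest score was used. No test was made, as the lists hold called peaks of 2 replicates and no second condition. Every gene with a promoter peak in the combined list or in both replicate lists was named, other genes by role list or by count, and the remaining names were chosen after their values were seen. Alternatives were other start sites, promoter sizes, overlap rules, the stronger 50% of each list, single replicates and X-box limits. The input libraries have no peak list and were not analysed here.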

Additional observations from a re-analysis of the deposited data

How the results depend on the processing

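All 26 alternative counts of genes with a promoter peak (start sites of protein-coding transcripts or the outermost one, a promoter of 500 bp upstream and 50 bp downstream, the peak centre or summit inside it, the stronger 50% of each list, the added or removed genes) lay within 1.5 times the value given, from 10 to 18 genes, and above the share of all genes in each. Spata18 dropped out of the combined count where the peak centre had to lie inside the promoter. Without replicate 1 or without replicate 2 the count for both lists was 18 or 17 in place of 16. The share with an X-box rose from 53.8% to 84.6% with 4 mismatches allowed (78.0% of all genes with a combined promoter peak) and fell to 23.1% around the peak centre (32.9%). The genes without a promoter peak in a list that had one within 50 kb rose from 18.3% to 80.4% in the replicate 1 list (73.9% of all) and 60% in the replicate 2 list (59.3%), which hold more peaks. The median distance to a TSS rose from 28 bp by summit to 122 bp by peak centre (70 and 145 bp over all genes), within the wide 95% interval of the former, 4 to 126 bp. The other 7 alternatives, on strength, outermost TSS and X-box, moved no value beyond its 95% interval. No paired analysis was possible because the input libraries have no peak list. Small differences between subsets of 1 to 28 genes were not detectable with these numbers.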
